A study of Mus musculus with 7 samples.

Results

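The genes described here encode the noncollagenous scaffold of the liver matrix: laminin chains, nidogens, perlecan and agrin of the basement membrane, fibronectin, elastic fibre proteins, small leucine-rich proteoglycans, versican and matricellular proteins. They are 38 of the 22564 genes in the deposited table, chosen by gene symbol from a list of matrix glycoproteins, laminins and proteoglycans, and each symbol stands on 1 line of the table. Liver RNA was sequenced from mice of the strain labelled C57bl/6. The PBS group (3 libraries, PBS 1 to PBS 3) had phosphate-buffered saline, and the PTH group (4 libraries, PTH 1 to PTH 4) had parathyroid hormone, a peptide hormone whose receptor raises cyclic AMP. In the sample titles the groups are C and C+P. The meaning of C is left unexplained, so whether both groups share a further treatment cannot be told from the labels. Age, dose and duration are not given. No label ties a library to 1 animal, and p-values here reflect only how much the libraries of a group differ. The title of the series names signalling of the PTH receptor and fibrosis of the liver, and the comparison of PTH with PBS is the one its design holds.

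Basement membranes are thin sheets in which a laminin network and a collagen IV network are tied together by nidogens and heparan sulfate proteoglycans. The normal liver sinusoid has little continuous basement membrane, while bile ducts and larger vessels have one, and laminin, fibronectin and elastic fibres build up in scar. Plasma fibronectin is secreted by hepatocytes, whereas decorin, lumican, biglycan, fibrillin and the fibulins come mostly from stellate cells and fibroblasts.

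The levels are FPKM, fragments scaled to transcript length and to library size, as deposited. Estimated reads per library ran from 1200680 to 3281505, so low genes rest on few reads: summed over the 7 libraries, members had between 4 reads (Mfap2) and 68209 (Fn1), 9 had under 50 and 8 had over 1000. Tests were made on log2(FPKM + 0.5) with limma over the 11861 genes that reached 0.5 FPKM in at least 3 libraries, with Benjamini-Hochberg adjusted p under 0.05 as the threshold. A change on this log2 scale understates the fold of low genes. The change of all tested genes had a median of 0.55 toward PTH with values as deposited, and the changes of members that passed are also given with every library set to a common median, which removes that shift. The liver marker Alb ran from 5940 to 17700 FPKM in PBS and from 12200 to 23400 in PTH. Of the markers that define other cells, Clec3b and Muc16 (portal fibroblast and mesothelial lists), Cnn1 (smooth muscle), Ly6g (neutrophil) and Gp6 (platelet) were listed at 0 in every library. In whole liver, fewer cells of a type and less RNA per cell cannot be told apart.

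Of the 38 matrix genes, 32 passed the filter on low values, 5 of them rose and 1 fell. The genes that rose were Nid1, Lamc1, Agrn, Emilin1 and Tnc, which is 15.6% of those tested, where 22.8% of all tested genes rose. The gene that fell was Fn1, 3.12% of those tested, where 2.37% of all tested genes fell. The median change of the tested members was 0.38, and 13 of them lay above the 0.55 of all tested genes and 19 below it. Under a common median, 1 member stayed higher (Nid1, with 3.25% of all genes higher) and 1 lower (Fn1, with 5.25% lower). The groups did not overlap, with PTH higher, for 8 tested members, namely Lama5, Nid1, Hspg2, Agrn, Fbn1, Emilin1, Sparc and Tnc, as for 32.9% of all tested genes, and with PTH lower for Fn1, as for 3.2%. Without PTH 1 the count that rose was 5, without PTH 2 it was 1, and without any 1 of the other 5 libraries it was 2. The count over all tested genes, 2709 with every library, also varied. It was 2178, 1291 and 1241 without PBS 1, 2 and 3, and 2734, 998, 1587 and 2400 without PTH 1, 2, 3 and 4. The member counts are not only of the 5 genes named above. Without PTH 1 Thbs1 took the place of Tnc, and without PBS 2 or PTH 3 the count was Nid1 and Mgp. Without PBS 1, PBS 2 or PTH 2 the count of members that fell was 0. Of all tested genes 127, 146 and 122 fell there, against 281 with every library. The members that passed do not stand for all 38, since Lama3, Lamb3, Eln, Mfap2, Mfap4 and Ogn were too low to test.

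**Figure D1:**
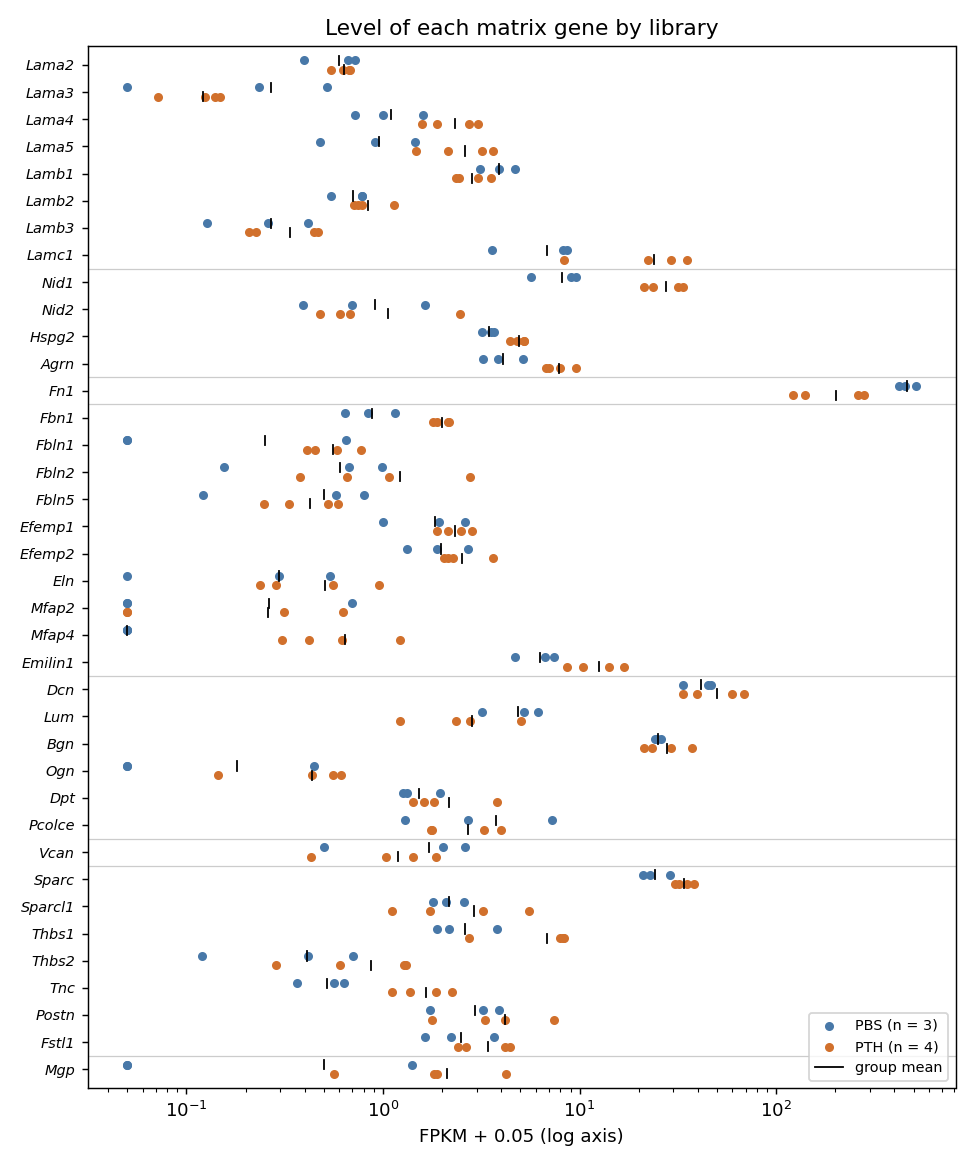
Level of each of the 38 matrix genes in FPKM, with 0.05 added so that a log axis can show values of 0; points are libraries (PBS n = 3, PTH n = 4), bars are group means and lines separate the roles. Fn1 stands far to the right of all others, with its 4 PTH libraries left of its 3 PBS libraries, and the PTH libraries of Nid1, Agrn and Emilin1 lie right of PBS.

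The levels were very unequal. Fn1 was the 72nd most abundant gene of the table in PBS and the 159th in PTH, and it made up 74.7% of the summed FPKM of the 38 genes in PBS and 45.6% in PTH. The summed level of all 38 was 690, 591 and 576 FPKM in the PBS libraries, by number, and 463, 393, 483 and 421 in the PTH libraries. Without Fn1 the sum was 175, 140 and 156 FPKM in PBS and 203, 271, 202 and 281 in PTH. The sum with Fn1 was thus lower in every PTH library than in any PBS library, and the sum of the other genes was higher in every PTH library. Dcn, Bgn, Sparc, Nid1 and Lamc1 were the only others with a mean over 10 FPKM, and 13 members had a mean under 1.

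The nidogens, which bridge laminin to collagen IV, behaved differently from each other. Nid1 (nidogen 1, 13:13437551-13512269, plus strand, GRCm38) stood at 9.54, 5.61 and 9.03 FPKM in the PBS libraries and at 31.5, 21.2, 33.7 and 23.5 in the PTH libraries. Every PTH library lay far above the highest PBS library, and the groups did not overlap. Nid1 rose from 8.06 ± 2.14 (SD, n = 3) to 27.5 ± 6.06 (SD, n = 4), a log2 change of 1.72 (SE 0.29, limma adjusted p = 0.0048). It passed in all 21 alternatives, including the common median (change 1.14, limma adjusted p = 0.0347). Those that changed only the threshold reuse the main fit, and the main values of Nid1 pass them in any case. Nid2, the second nidogen, stood at 0.65, 1.59 and 0.341 FPKM in PBS and at 2.42, 0.629, 0.43 and 0.552 in PTH. PTH 1 was high and the other 3 PTH libraries lay within the PBS range, so that Nid2 did not pass (change 0.08, SE 0.48, limma adjusted p = 0.907). The difference between the changes of both nidogens was not tested.

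The promoter of Nid1 is shown because it is the member called under every setting, together with that of Tnc, which was called in 11 of the 21 alternatives, and that of Agrn, chosen after its values were seen for its many GC boxes. The alternatives that changed only the threshold reuse the main fit. The main values of Nid1 and Tnc pass them in any case, so those alternatives add no support. Each is 1 RefSeq window on GRCm38.p6, from 250 bases before the start of the gene to 50 after it, written 5′ to 3′ on the strand of the gene. Capitals mark matches, on either strand, to TGACG (the core of the cyclic AMP response element), TGANTCA (the AP-1 site), GGGCGG (the GC box, which reads CCGCCC on the other strand) and TATAAA (the TATA box).
Nid1, chr13:13437352-13437651, plus strand: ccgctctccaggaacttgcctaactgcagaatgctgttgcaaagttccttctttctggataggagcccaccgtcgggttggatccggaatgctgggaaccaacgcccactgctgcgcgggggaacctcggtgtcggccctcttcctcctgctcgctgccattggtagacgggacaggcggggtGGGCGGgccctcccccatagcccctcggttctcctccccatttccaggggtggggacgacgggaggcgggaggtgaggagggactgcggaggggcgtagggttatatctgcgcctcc
Tnc, chr4:64046966-64047265, minus strand, 1 of 2 windows listed: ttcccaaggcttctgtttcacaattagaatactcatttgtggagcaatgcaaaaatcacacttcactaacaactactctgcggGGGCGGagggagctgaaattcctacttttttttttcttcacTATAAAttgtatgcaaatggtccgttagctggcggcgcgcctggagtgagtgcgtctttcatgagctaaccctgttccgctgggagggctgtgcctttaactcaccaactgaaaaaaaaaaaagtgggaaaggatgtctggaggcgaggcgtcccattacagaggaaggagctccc
Agrn, chr4:156197439-156197738, minus strand, 1 of 2 windows listed: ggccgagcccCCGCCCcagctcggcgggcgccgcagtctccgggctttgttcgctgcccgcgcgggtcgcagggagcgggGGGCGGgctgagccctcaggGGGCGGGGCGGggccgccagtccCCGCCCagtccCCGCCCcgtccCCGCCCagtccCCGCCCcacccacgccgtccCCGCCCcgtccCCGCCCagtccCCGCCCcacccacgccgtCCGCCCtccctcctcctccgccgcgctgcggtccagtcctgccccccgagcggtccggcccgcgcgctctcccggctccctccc
The Nid1 window held 1 GC box at base 184 of the window, and no TATA box. The Tnc window, with a GC content of 47.3%, held a GC box at base 84 and a TATA box at base 125. The Agrn window, with a GC content of 83.3%, held 12 GC boxes, some of them overlapping. None of the windows of these 3 genes held TGACG or TGANTCA. RefSeq windows matched 26 of the 38 members by symbol. The full element TGACGTCA was in 0 of these 26, against 3.13% of the 8857 tested genes with a window, and TGACG was in 3 (Lama5, Lamb2 and Fbln5, 11.5%), against 31.7%. GC boxes were in 17 of the 26 (65.4%), against 63.9%, and TATA boxes in 4 (Tnc, Thbs2, Dpt and Ogn, 15.4%), against 7.38%. TGANTCA was in Efemp1 alone (3.85%), against 5.25%. These are matches of letters in 300 bases and no measure of binding.

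Of the heparan sulfate proteoglycans of the basement membrane, agrin rose. Agrn (4:156165290-156197488, minus strand) stood at 3.82, 5.11 and 3.19 FPKM in PBS and at 6.71, 9.55, 6.95 and 7.94 in PTH, with no overlap. Its level went from 4.04 ± 0.981 (SD, n = 3) to 7.79 ± 1.29 (SD, n = 4), a log2 change of 0.88 (SE 0.28, limma adjusted p = 0.0434). The call was lost with a common median (change 0.31, limma adjusted p = 0.488) and on leaving out any library but PTH 1, where the adjusted p was 0.0922, 0.0564 and 0.134 without PBS 1, 2 and 3, and 0.115, 0.0773 and 0.0697 without PTH 2, 3 and 4. Hspg2, which encodes perlecan, stood at 3.5, 3.15 and 3.62 FPKM in PBS and at 4.75, 5.18, 4.37 and 5.19 in PTH. All 4 PTH libraries lay above PBS, yet the change of 0.45 (SE 0.27) did not pass (limma adjusted p = 0.226) and was -0.12 with a common median.

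Laminins are trimers of an alpha, a beta and a gamma chain, and Lamc1 encodes the gamma chain that most of these trimers share. Lamc1 (1:153218922-153332786, minus strand) stood at 8.19, 3.52 and 8.63 FPKM in PBS and at 8.32, 29.3, 22.2 and 35.3 in PTH. PTH 1 lay inside the PBS range and the other 3 PTH libraries far above it. Lamc1 rose from 6.78 ± 2.83 (SD, n = 3) to 23.8 ± 11.6 (SD, n = 4), a log2 change of 1.65 (SE 0.47, limma adjusted p = 0.028). The change of 1.08 under a common median did not pass (limma adjusted p = 0.209). It did not pass without PBS 2, PTH 2, PTH 3 or PTH 4 either, where the limma adjusted p was 0.0999, 0.0876, 0.0646 and 0.0611, and was 0.00389 without PTH 1.

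None of the other 5 laminin chains tested passed limma at an adjusted p under 0.05, and 2 of them, Lama5 and Lama4, had an unadjusted p under 0.05. Lama5, an alpha chain of vessel and epithelial basement membranes, stood at 0.863, 0.428 and 1.41 FPKM in PBS and at 2.09, 3.59, 1.42 and 3.14 in PTH. The lowest PTH value lay only just above the highest PBS value, and the change of 1.13 (SE 0.4) missed the threshold (limma adjusted p = 0.0561). Lama4, the other endothelial alpha chain, stood at 0.952, 0.67 and 1.54 FPKM in PBS and at 2.7, 1.84, 1.53 and 2.99 in PTH, where PTH 3 alone lay inside the PBS range (change 0.84, SE 0.36, limma adjusted p = 0.103). By scaled counts, where 3740 genes of the whole table were higher, Lama4 passed (change 1.07, limma adjusted p = 0.0193). With a common median its change was 0.26 by FPKM (limma adjusted p = 0.695) and 0.47 by scaled counts. Lama2, the muscle and nerve alpha chain, stayed between 0.346 and 0.674 FPKM in PBS and between 0.495 and 0.629 in PTH. Lama3, the epithelial alpha chain, was between 0 and 0.472 FPKM in PBS and between 0.0221 and 0.0983 in PTH, too low to test.

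The beta chains did not follow Lamc1. Lamb1, the most widespread beta chain, stood at 4.62, 3.06 and 3.85 FPKM in PBS and at 2.38, 2.98, 2.3 and 3.48 in PTH. PTH 1, 2 and 3 lay below all PBS libraries and PTH 4 within them, and the change of -0.40 (SE 0.31) did not pass (limma adjusted p = 0.338). Lamb2 ran from 0.494 to 0.737 FPKM in PBS and from 0.66 to 1.09 in PTH (change 0.16). Lamb3 ran from 0.0778 to 0.367 in PBS and from 0.159 to 0.416 in PTH, with no test. Summed FPKM of the alpha chains was 2.72 ± 0.86 (SD, n = 3) in PBS and 5.48 ± 1.44 (SD, n = 4) in PTH. That of the beta chains was 4.72 ± 1.05 in PBS and 3.87 ± 0.647 in PTH. Lamc1 over the summed beta chains was 1.43, 0.97 and 1.8 in PBS and 2.41, 6.55, 6.99 and 8.08 in PTH, so that every PTH library had the higher ratio of transcript levels.

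**Figure D2:**
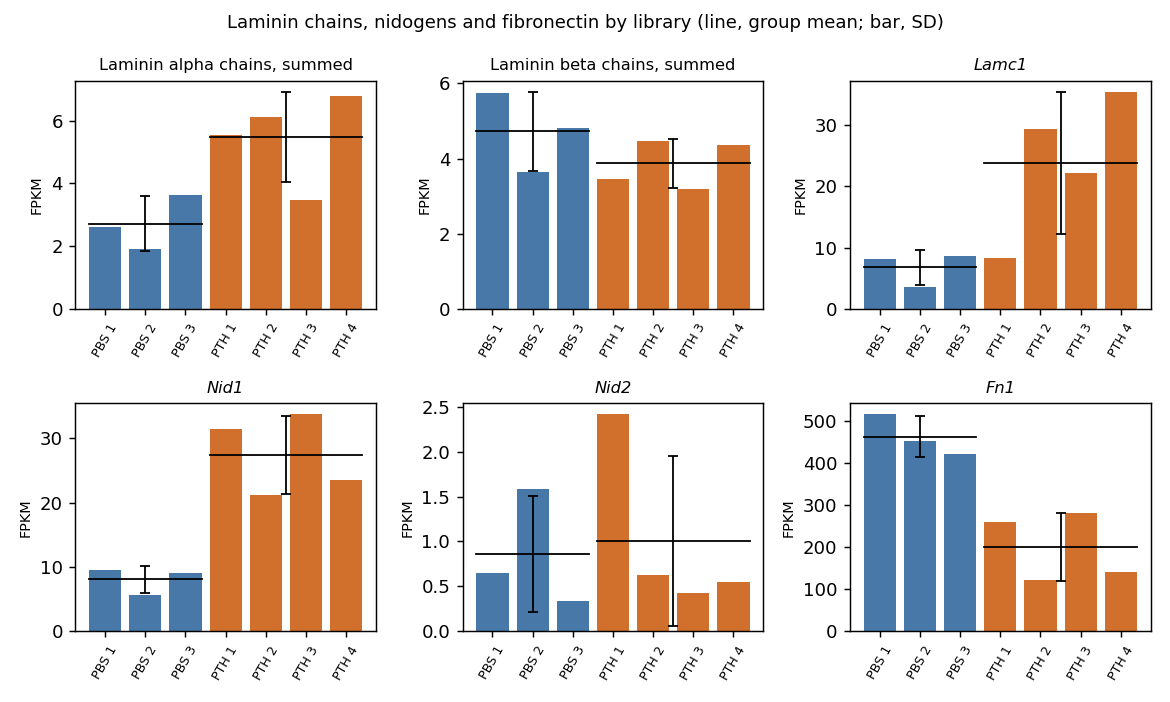
FPKM in each library of the summed laminin alpha chains, the summed beta chains, Lamc1, Nid1, Nid2 and Fn1; bars are libraries, lines group means and error bars the SD. Lamc1 is 8.32 in PTH 1 and 22.2 or more in PTH 2 to 4, Nid1 is 21.2 or more in all 4, and Fn1 is 280 or less in all 4.

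The level of Lamb1 depended on the column read. The table also gives a scaled count for each gene, and the scaled count per FPKM is the amount of that count behind 1 unit of FPKM. For Lamb1 it was 16.3, 17.1 and 16.4 in PBS and 27.4, 29.8, 23.6 and 28.1 in PTH, 1.64 times higher on average and with no overlap. Lamb1 was the 1 of 30 members (3.33%) above 0 in every library for which this ratio lay apart between the groups by over 1.5 times, a limit chosen after the values were seen. The same held for 152 of 11041 tested genes (1.38%). By scaled counts the Lamb1 change was 0.23 in place of -0.40, and neither passed. For Fstl1 the scaled count per FPKM was 16.7, 10.1 and 10.6 in PBS and between 16.5 and 20.3 in PTH. Its change of 0.41 by FPKM was 0.94 by scaled counts (limma adjusted p = 0.0381), or 0.33 by scaled counts with a common median. The cause of these ratios was not tested.

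**Figure D3:**
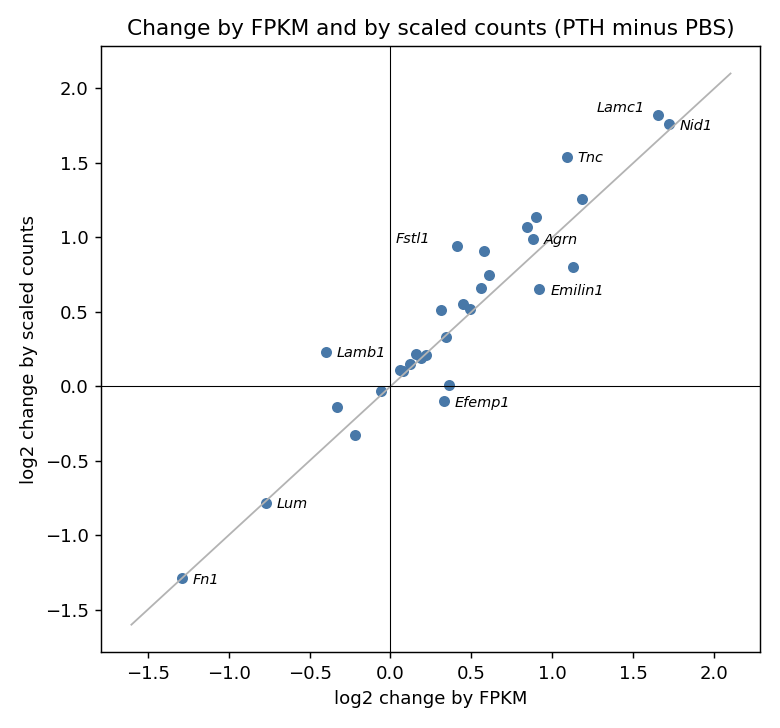
Log2 change, PTH minus PBS, of the tested matrix genes other than Mgp, whose scaled counts were too low, by FPKM (horizontal) and by scaled counts (vertical); points are genes and the line marks equal change. Lamb1 and Efemp1 have opposite signs on the axes, Fstl1 is 0.41 and 0.94, and Nid1 (1.72 and 1.76) and Fn1 (-1.29 and -1.29) lie near the line.

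Fibronectin fell. Fn1 (1:71585520-71653200, minus strand), whose protein carries integrin binding sites and circulates in plasma, stood at 515, 451 and 420 FPKM in PBS and at 260, 122, 280 and 140 in PTH. The highest PTH library was well under the lowest PBS library. Its level went from 462 ± 48.3 (SD, n = 3) to 201 ± 81 (SD, n = 4), a log2 change of -1.29 (SE 0.34, limma adjusted p = 0.0208), with the PBS mean 2.3 times the PTH mean. Under a common median it was -1.86 (limma adjusted p = 0.0114). The call was lost without PBS 1, PBS 2 or PTH 2, with a limma adjusted p of 0.054, 0.0532 and 0.0662. The locus listed for Fn1 is also listed for Apol7d, whose change of 0.33 did not pass (limma adjusted p = 0.69), so the values of this pair are uncertain to that extent.

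Several marker lists moved with the groups beside Fn1. Beside the 2.37% of all tested genes that fell, 9 of 25 hepatocyte markers tested did so (36.0%) and 1 rose, and 2 that fell were Fga and Fgg, chains of fibrinogen, another plasma protein made by hepatocytes. Fga stood at 4620, 4040 and 3690 FPKM in PBS and at 1460, 533, 1690 and 837 in PTH (limma adjusted p = 0.0077). PTH 2 and PTH 4 were the lowest PTH libraries for Fga, as they were for Fn1 and for 21.1% of all tested genes. Of other hepatocyte markers that fell, Fgg and G6pc had that order and Cyp2e1 (67, 177, 121 and 146 FPKM in PTH) did not. The summed hepatocyte markers ran from 44200 to 73500 FPKM in PBS and from 35800 to 59900 in PTH. Of 19 Kupffer cell and macrophage markers 8 fell (42.1%) and 1 rose, with sums of 310 to 439 FPKM in PBS and 188 to 295 in PTH. Of 10 neutrophil markers 6 fell, with sums of 1200 to 2760 FPKM in PBS and 114 to 769 in PTH. Among those 6, Mpo (0, 0, 0 and 0.136 FPKM in PTH) and Prtn3 (1.35, 0, 1.08 and 0) met the filter only with PBS libraries. The neutrophil count thus partly reflects the filter. Of 20 genes on a list of stress genes that tissue handling can induce, 8 fell (40.0%), with sums of 566 to 1510 FPKM in PBS and 225 to 334 in PTH. Whether handling differed between the groups was not tested. Leaving out 1 library gave 5 to 10 falls of hepatocyte markers, 5 to 10 of macrophage markers and 3 to 5 of neutrophil markers. Their part in the change of Fn1 was not tested.

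Marker lists of the other cells that a liver sample holds are given beside the 22.8% of all tested genes that rose. Of 24 liver endothelial markers, 6 rose (25.0%, with a list median of 0.55, the same as that of all tested genes). Their sums of 159 to 202 FPKM in PBS and 218 to 288 in PTH do not overlap. Among the 6, Cldn5 (0.321 FPKM in PBS 3) and Emcn (0.0701 and 0.25 in PBS 1 and PBS 2) met the filter only with PTH libraries. Of 23 stellate cell markers 2 rose (8.7%, with a list median of 0.16, below the 0.55 of all tested genes), Nes and Lrat. The sums of that list were 191 to 276 FPKM in PBS and 197 to 298 in PTH. Nes, at a shared locus, was at 0.0814 FPKM in PBS 1 and met the filter only with PTH libraries. Lrat, the retinol esterifying enzyme of quiescent stellate cells, stood at 1.82, 1.79 and 2.95 FPKM in PBS and at 5.63, 10.8, 5.99 and 7.03 in PTH. Of 10 smooth muscle and myofibroblast markers 1 rose (Tagln), with sums of 29.1 to 42.8 FPKM in PBS and 38.7 to 56.8 in PTH. Tagln, at a shared locus, also passed with a common median (change 1.45, limma adjusted p = 0.0224). Of 13 cholangiocyte markers 4 rose (30.8%), with overlapping sums of 69.9 to 106 FPKM in PBS and 53.3 to 104 in PTH. Of those 4, Krt7, Tspan8 and Cldn7 were under 0.5 FPKM in every PBS library and passed the filter through PTH alone, so their count has no weight. None of 9 portal fibroblast and mesothelial markers passed limma at an adjusted p under 0.05, 3 had an unadjusted p under 0.05 and 4 passed by scaled counts, with sums of 17.3 to 27.2 and 22 to 38.4. With a common median the endothelial, cholangiocyte and stellate rises were not called, and 3 stellate markers and 1 cholangiocyte marker were lower. Leaving out 1 library gave 0 to 6 endothelial and 0 to 5 cholangiocyte rises. The part of these cells in the rises of Nid1, Lamc1 and Agrn was not tested.

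Elastic fibres consist of elastin on a scaffold of fibrillin, fibulins, microfibril proteins and emilins. Of the 10 listed genes 7 were tested and 1 rose. Emilin1 (5:30913402-30921277, plus strand), a glycoprotein at the border of elastin and microfibrils, stood at 7.41, 6.66 and 4.65 FPKM in PBS and at 8.56, 14.1, 10.4 and 16.7 in PTH. The groups did not overlap, though PTH 1 lay close to PBS 1. It rose from 6.24 ± 1.43 (SD, n = 3) to 12.5 ± 3.67 (SD, n = 4), a change of 0.92 (SE 0.31, limma adjusted p = 0.0476). The call was lost with a common median (change 0.35, limma adjusted p = 0.49), by scaled counts (change 0.65, limma adjusted p = 0.0621) and without any 1 library other than PTH 1. That adjusted p was 0.0622, 0.089 and 0.155 without PBS 1, 2 and 3, and 0.121, 0.0751 and 0.0956 without PTH 2, 3 and 4.

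Fbn1, which encodes the main microfibril protein fibrillin 1, stood at 1.1, 0.589 and 0.789 FPKM in PBS and at 2.11, 2.09, 1.83 and 1.74 in PTH. The PTH libraries lay close together and all above PBS, with a change of 0.90 (SE 0.32) that missed the threshold (limma adjusted p = 0.0599). By scaled counts Fbn1 passed (change 1.14, limma adjusted p = 0.0104). With a common median its change was 0.32 by FPKM (limma adjusted p = 0.497) and 0.53 by scaled counts. The locus listed for Fbn1 is also listed for Gm9913.

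The fibulins and elastin itself showed no call, and none that was tested had an unadjusted p under 0.05. Fbln1 was listed at 0 in PBS 2 and PBS 3 and at 0.602 FPKM in PBS 1, and ran from 0.363 to 0.725 in PTH (change 0.61, limma adjusted p = 0.256). Fbln2 ran from 0.105 to 0.936 FPKM in PBS and from 0.33 to 2.73 in PTH, with PTH 1 the high library. Fbln5, needed for elastin assembly in mice, ran from 0.071 to 0.749 in PBS and from 0.199 to 0.541 in PTH. Efemp1 (fibulin 3) and Efemp2 (fibulin 4, which binds lysyl oxidase) had means of 1.79 ± 0.808 and 1.92 ± 0.692 FPKM (SD, n = 3) in PBS and 2.29 ± 0.414 and 2.47 ± 0.736 (SD, n = 4) in PTH. Their changes of 0.33 and 0.31 did not pass, with limma adjusted p of 0.495 and 0.52. Eln ran from 0 to 0.486 FPKM in PBS and from 0.186 to 0.909 in PTH, on 27 estimated reads in all. Mfap2 was listed at 0 in 4 of the 7 libraries. Mfap4 was listed at 0 in all 3 PBS libraries and at 0.256, 0.369, 0.57 and 1.18 FPKM in PTH, on 14 estimated reads, with no test and no fold.

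The small leucine-rich proteoglycans coat collagen fibrils and set their thickness and spacing, and none of them passed limma with values as deposited, nor had an unadjusted p under 0.05. Dcn, decorin, which also binds TGF-beta, was the most abundant member after Fn1, at 44.8, 33.5 and 46.7 FPKM in PBS and 39.3, 68.4, 33.7 and 59.3 in PTH. PTH 2 and PTH 4 lay above PBS while PTH 1 and PTH 3 lay within it, and the change was 0.22 (SE 0.3, limma adjusted p = 0.599), or -0.35 with a common median. Bgn, biglycan, stood at 25.9, 24.8 and 24 FPKM in PBS and 23.3, 29.3, 21.3 and 37.3 in PTH, with PTH 2 and PTH 4 above PBS and PTH 1 and PTH 3 below it. Its change was 0.12 (SE 0.26, limma adjusted p = 0.748), or -0.45 with a common median. Lum, lumican, pointed the other way, at 5.17, 3.13 and 6.1 FPKM in PBS and 2.3, 5.01, 1.17 and 2.72 in PTH. PTH 1, 3 and 4 lay below every PBS library and PTH 2 within them, with a change of -0.77 (SE 0.42, limma adjusted p = 0.184). By scaled counts with a common median Lum passed (change -1.38, limma adjusted p = 0.048). Ogn, osteoglycin, was listed at 0 in PBS 2 and PBS 3 and reached 0.564 FPKM at most, and was not tested.

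The fibril partners outside that family were as variable. Dpt, dermatopontin, a decorin binding protein, stood at 1.28, 1.22 and 1.91 FPKM in PBS and at 1.76, 1.56, 1.37 and 3.74 in PTH (change 0.34, SE 0.38). PTH 4 alone lay above PBS. Pcolce, which enhances removal of the procollagen C-propeptide, ran from 1.24 to 7.17 FPKM in PBS, a wider span than the 1.7 to 3.94 of PTH, and its change of -0.22 (SE 0.49) turned to 0.35 without PBS 1. Vcan, versican, a large chondroitin sulfate proteoglycan that binds hyaluronan, ran from 0.449 to 2.58 FPKM in PBS and from 0.381 to 1.82 in PTH (change -0.33, SE 0.48, limma adjusted p = 0.631).

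Matricellular proteins sit in the matrix and act on cells more than they bear load. Tnc (tenascin C, 4:63959785-64047015, minus strand), a glycoprotein that appears in wounds and during development, stood at 0.511, 0.315 and 0.581 FPKM in PBS and at 1.81, 1.32, 2.21 and 1.06 in PTH. Each PTH library lay above every PBS library, on 202 estimated reads in all. PBS 2 was under 0.5 FPKM, so Tnc met the filter on low values only with the PTH libraries. Tnc rose from 0.469 ± 0.138 (SD, n = 3) to 1.6 ± 0.511 (SD, n = 4), a ratio of means of 3.41 and a log2 change of 1.09 (SE 0.35, limma adjusted p = 0.04). With a common median the change was 0.52 (limma adjusted p = 0.341). It passed without PTH 4, and did not without any 1 of the others, at a limma adjusted p of 0.0713, 0.116 and 0.0731 without PBS 1, 2 and 3 and 0.0667, 0.0786 and 0.0998 without PTH 1, 2 and 3.

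Of the thrombospondins, Thbs1, which activates latent TGF-beta, stood at 1.82, 3.75 and 2.12 FPKM in PBS and at 2.68, 7.91, 8.17 and 8.3 in PTH. PTH 1 lay inside the PBS range and the other 3 PTH libraries lay far above it. The change of 1.18 (SE 0.41) missed the threshold (limma adjusted p = 0.0564), and without PTH 1 it was 1.54 (limma adjusted p = 0.00899). By scaled counts Thbs1 passed (change 1.26, limma adjusted p = 0.0269). With a common median its change was 0.61 by FPKM (limma adjusted p = 0.413) and 0.65 by scaled counts. Thbs2 ran from 0.0699 to 0.655 FPKM in PBS and from 0.234 to 1.26 in PTH (change 0.58, limma adjusted p = 0.322). PTH 1 was also the library in which Lamc1 stayed within the PBS range.

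Sparc and its relatives gave no call. Sparc (osteonectin), a collagen binding protein, stood at 28.8, 20.9 and 22.8 FPKM in PBS and at 35, 38, 30.7 and 31.9 in PTH. The groups did not overlap, and the change of 0.49 (SE 0.24) did not pass (limma adjusted p = 0.151), near the 0.55 of all genes, and was -0.09 with a common median. Sparcl1 ran from 1.76 to 2.54 FPKM in PBS and from 1.07 to 5.5 in PTH, on both sides of PBS. Postn, periostin, ran from 1.69 to 3.83 FPKM in PBS and from 1.73 to 7.39 in PTH (change 0.36, limma adjusted p = 0.558). Fstl1, follistatin-like 1, ran from 1.59 to 3.62 FPKM in PBS and from 2.37 to 4.37 in PTH (limma adjusted p = 0.407). Mgp, matrix Gla protein, an inhibitor of calcification, was listed at 0 in PBS 1 and PBS 3 and at 1.36 FPKM in PBS 2, and stood at 1.83, 1.77, 0.512 and 4.19 in PTH. PTH 3 lay below PBS 2, so the groups overlapped, and the change of 1.53 (SE 0.59) did not pass on 17 estimated reads (limma adjusted p = 0.0736). The limma adjusted p was 0.0448 without PTH 3, and 0.0337 without PBS 2, which leaves PBS libraries at 0 only and so shows nothing of the change.

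**Figure D4:**
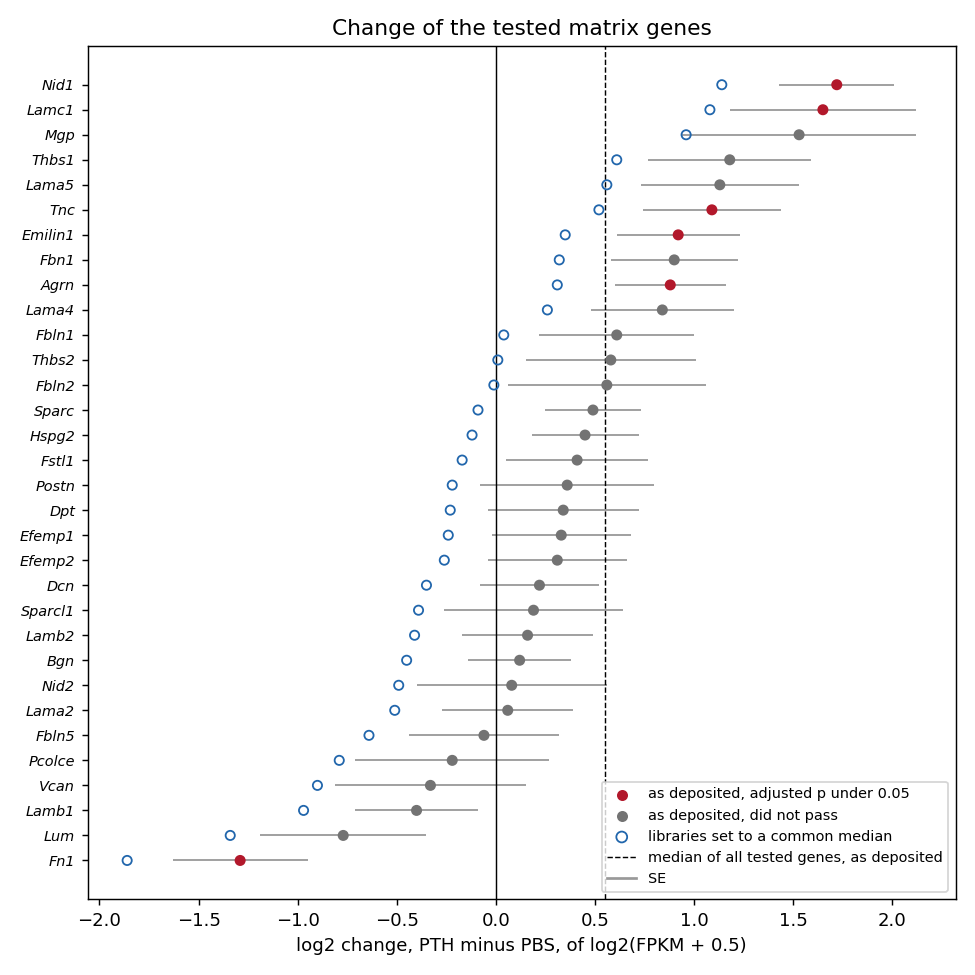
Log2 change, PTH minus PBS, of the 32 tested matrix genes on the log2(FPKM + 0.5) scale, in order of size; filled points are values as deposited with their SE, open points the same with libraries set to a common median, and the dashed line the median of all tested genes (0.55). Nid1 and Fn1 lie at the ends, at 1.72 and -1.29, and 14 genes that lie right of 0 as deposited have their open point left of 0.

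The loci of 9 members are listed for another gene as well. Besides Fn1 and Fbn1 these are Nid2, Mfap4, Ogn, Pcolce, Vcan, Sparcl1 and Postn, so their levels are uncertain to that extent. Whether strand was used in counting is not stated in the labels.

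Genes of the same biology outside the 38 are given by list. Of 16 other basement membrane and laminin genes tested, 2 rose and 1 fell. Ntn4, a netrin that disrupts laminin networks by binding the gamma chain, stood at 2.23, 1.29 and 1.5 FPKM in PBS and at 4.2, 5.15, 5.24 and 4.39 in PTH (change 1.29, SE 0.3, limma adjusted p = 0.0145), with no overlap. Tinagl1, a matrix protein related to the tubulointerstitial nephritis antigen, rose from 3.59 ± 1.21 (SD, n = 3) to 12.1 ± 3.8 FPKM (SD, n = 4, limma adjusted p = 0.00854). Col18a1, the core of a collagen that carries heparan sulfate, fell from 135 ± 37.8 to 59.9 ± 12.2 FPKM (limma adjusted p = 0.0192), at a locus shared with another gene. With a common median Ntn4 and Tinagl1 did not pass (limma adjusted p = 0.12 and 0.0715), and 2 of the 16 were lower.

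Among matrix receptors, 5 of 25 rose (below the 22.8% of all genes) and 1 fell, with 2 to 4 rises on leaving out 1 library and 1 with a common median. Itgb1, the beta 1 integrin subunit that pairs into most receptors for laminin and fibronectin, stood at 32.5, 22 and 29.8 FPKM in PBS and at 64.9, 88.7, 69.2 and 77.8 in PTH (change 1.41, SE 0.25, limma adjusted p = 0.00619), at a shared locus. It also passed with a common median (change 0.84, limma adjusted p = 0.0461). Itga3, the alpha subunit of a laminin receptor, stood at 0.671, 1.28 and 0.587 FPKM in PBS and at 3.72, 2.85, 6.81 and 3.25 in PTH (change 1.76, SE 0.37, limma adjusted p = 0.0101), and did not pass with a common median (change 1.18, limma adjusted p = 0.0793). Both groups of values lay apart for both integrin genes. Lrp1, an endocytic receptor of hepatocytes that clears matrix proteins and proteases, fell from 119 ± 17.3 (SD, n = 3) to 48.4 ± 11.8 FPKM (SD, n = 4, limma adjusted p = 0.0096).

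Of 35 glycosaminoglycan assembly enzymes, 8 rose and 1 fell (22.9% higher, against the 22.8% of all genes), with 2 to 8 rises on leaving out 1 library and 1 with a common median. Ugdh, which makes the UDP-glucuronic acid used for these chains and for glucuronidation, stood at 45.4, 25.9 and 29.8 FPKM in PBS and at 158, 233, 179 and 171 in PTH (change 2.47, SE 0.28, limma adjusted p = 0.00149). B3gat3 and Fam20b, which build and phosphorylate the linker between core protein and chain, had changes of 1.36 and 1.36 (limma adjusted p = 0.0115 and 0.0146). Hs2st1, a sulfotransferase of heparan sulfate, rose from 1.55 ± 0.146 (SD, n = 3) to 4.14 ± 0.745 FPKM (SD, n = 4, limma adjusted p = 0.0196). With a common median B3gat3, Fam20b and Hs2st1 did not pass, at a limma adjusted p of 0.0908, 0.11 and 0.178, while Ugdh did (change 1.89, limma adjusted p = 0.00259).

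The remaining matrix lists held few calls. Of 29 other matrix glycoproteins 2 rose, Mfap3 and Fstl3, with 0 to 2 on leaving out 1 library. Fstl3 was listed at 0 in every PBS library and passed the filter through PTH alone. Of 15 other proteoglycans 1 rose (Srgn, the granule proteoglycan serglycin) and 1 fell. The one that fell was Prg4, lubricin, at 113, 98.3 and 142 FPKM in PBS and 42.3, 24.2, 39.8 and 43.6 in PTH (change -1.66, limma adjusted p = 0.00521, shared locus). Of 30 folding and crosslinking enzymes 2 rose, Tgm1 and Pomgnt1. Of the 149 genes tested in these 6 lists together 20 rose (13.4%, against 22.8% of all genes) and 4 fell (2.68%, against 2.37%), while with a common median 2 were higher and 9 lower.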

How the data were processed

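RNA of 7 mouse liver libraries was analysed, in the groups that the labels give. Per the file headers, the table deposited by the authors holds FPKM and count columns per library. The deposited count columns are a scaled signal: 94.1% to 95.2% of a library's low values were whole multiples (tolerance 0.05) of 1 step, whose size varied by library, so they were given no count test. Dividing totals by that step gave the estimated reads. The submitters' processing notes name Bowtie 0.12.2 and mm8, and no source used here names the quantifier. Of the 22564 genes, 96.8% have an identifier in GENCODE M21, and 95.0% of these have a deposited locus that spans the M21 gene on GRCm38 within 5000 bases. The deposited loci thus match GRCm38, a different build from the mm8 of the notes. Which build the reads were aligned to was not tested. Coordinates are those of M21. One line that names no gene was left out.

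Values were taken as log2(FPKM + 0.5) for genes that reached 0.5 FPKM in 3 or more libraries. They were fitted in R 4.3.3 by limma 3.58.1, with a trended and robust eBayes, 3 PBS against 4 PTH, two-sided, and adjusted by Benjamini-Hochberg over all tested genes, at a threshold of 0.05. The members and lists were chosen with earlier results of these data known. All 38 members are named. Of the other lists, genes past the threshold are named, at most 4 with the smallest p in each list. Promoters were to be shown for members past the threshold in most of the alternatives as well, with those that changed only the threshold counted in. Lamc1 and Fn1 also meet that rule and are named only. Figures used matplotlib 3.10.9.

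Alternatives changed the libraries (each left out in turn, array weights, a block by replicate number), the scaling (common median, quantile), the filter (none, or 1 FPKM), the pseudocount (0.1 or 1), the eBayes step (neither trend nor robust) and the threshold (adjusted p of 0.1, or a log2 change of 1 as well). Others used scaled counts (pseudocount and minimum of 5) or dropped shared loci. Scaled counts with a common median were chosen after seeing the data.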

Additional observations from a re-analysis of the deposited data

Results flagged for a closer look

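Within the 4 PTH libraries, 5 matrix genes had 1 library far from the other 3, by the gap to its nearest neighbour as a share of the whole range. Chance gives such a gap in about 1 of 20 groups, and the 3 PBS libraries are too few for this check. Thbs1 was low in PTH 1 (2.68 FPKM, gap 0.931 of the range) and Nid2 was high there (2.42 FPKM, 0.9). Lamb2 was high in PTH 2 (1.09 FPKM, 0.837). Efemp2 was high in PTH 3 (3.57 FPKM, 0.864). Dpt was high in PTH 4 (3.74 FPKM, 0.834). Of these genes, Thbs1 is the one whose call changed without that library, passing without PTH 1 (limma adjusted p = 0.00899).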

How the results depend on the processing

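Leaving out 1 library at a time gave 998 to 2734 genes higher and 122 to 437 lower in the whole table (2709 and 281 with all), 1 to 5 matrix genes higher and 0 to 1 lower (5 and 1), and in the other matrix lists 7 to 17 higher and 2 to 8 lower (20 and 4). Under a common median there were 385 and 623 genes, 1 member higher, 2 and 9 in the other lists, and a member median of -0.19. Under quantile scaling there were 467 and 510 genes, 1 member higher, 2 other matrix genes higher and a member median of -0.083. Scaled counts gave 8 members higher, beside 3740 genes higher in the whole table. With a common median as well, chosen after seeing the data, they gave 518 and 820 genes, 1 and 2 members, 3 and 14 in the other lists, and a median of -0.094. Members higher numbered 3 with no filter, beside 2160 genes higher in the whole table. At an adjusted p of 0.1 they numbered 9, beside 3972 genes higher and 464 lower. At a log2 change of at least 1 they numbered 3, beside 2202 genes higher. Without shared loci 0 members and 2 other matrix genes were lower. That setting leaves out Fn1, Col18a1 and Prg4, which stand at shared loci, so those falls were removed and not lost in the test. Apart from genes left out in this way, the cause of the changes in these counts was not tested.

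With the replicate block, which drops PTH 4, 1583 genes were higher and 181 lower, with 1 and 1 members and 8 other matrix genes higher. Deviations of same-numbered libraries correlated at -0.043, -0.176 and 0.058, and not every library correlated best with its own number. The numbers were therefore not used as pairs in the main fit. So few libraries cannot exclude a pairing.

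Direction turned in 53 of 648 member values, in 0 of which the value passed. The 648 include alternatives that changed only the filter, the eBayes step, the threshold or the shared loci. Those leave the change of a member as it was, so its direction could not turn there, and the share that turned understates how often it could. Common median: Sparc -0.085, Fstl1 -0.17, Postn -0.22, Sparcl1 -0.39, Dpt -0.23, Bgn -0.45, Dcn -0.35, Efemp2 -0.26, Efemp1 -0.24, Fbln2 -0.014, Hspg2 -0.12, Nid2 -0.49, Lamb2 -0.41 and Lama2 -0.51. Quantile: Dcn -0.19, Bgn -0.37, Dpt -0.064, Sparcl1 -0.27, Efemp2 -0.14, Postn -0.16, Fstl1 -0.072, Efemp1 -0.10, Hspg2 -0.093, Nid2 -0.30, Lamb2 -0.17 and Lama2 -0.28. Scaled counts: Efemp1 -0.10 and Lamb1 0.23. Scaled counts with a common median: Hspg2 -0.056, Efemp1 -0.70, Efemp2 -0.094, Dcn -0.40, Bgn -0.46, Dpt -0.28, Sparc -0.085, Nid2 -0.50, Lamb2 -0.39, Postn -0.60, Sparcl1 -0.42 and Lama2 -0.49. Array weights: Sparcl1 -0.021 and Nid2 -0.13. Pseudocount 0.1: Fbln5 0.007. Replicate block: Sparcl1 -0.15 and Bgn -0.029. Leaving out 1 library: Pcolce -0.72 to 0.35, Vcan -0.84 to 0.009, Lama2 -0.086 to 0.15, Nid2 -0.29 to 0.45, Fbln5 -0.40 to 0.037, Sparcl1 -0.15 to 0.49 and Bgn -0.029 to 0.24.

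The planned edgeR and DESeq2 tests were not run, since the deposited counts are not whole reads. Depth limits the low genes: 9 members rest on under 50 estimated reads over all 7 libraries, and their levels carry wide counting error.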

Other observations

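The 4 PTH libraries differed among themselves in how the matrix genes were ordered. PTH 2 and PTH 4 both lay above PTH 1 and PTH 3 for 16 of the 32 tested members, among them Lamc1, Agrn, Lama5, Emilin1, Dcn, Bgn, Lum, Postn and Sparcl1. Of all tested genes compared, 20.7% had that order. PTH 2 and PTH 4 both lay below the other pair for 4 members, Nid1, Fn1, Efemp2 and Tnc (12.5%, against 21.1% of all genes). PTH 4 was the highest PTH library for 15 members (46.9%, against 12.8% of all genes), and PTH 3 was the lowest for 19 (59.4%, against 20.6%). PTH 1 and PTH 2 were each the highest library for many of all tested genes (35.1% and 36.5%), but for 15.6% and 21.9% of the members. This order was noticed in the data, was not tested, and the labels give the 4 libraries no attribute apart from their number.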
